A study of Mus musculus with 2 samples.

Results

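Mouse chromosome 13 carried 3337 of the 50887 regions in a list of macroH2A1.1-enriched chromatin from C2C12 cells. Its members were every listed region assigned to chromosome 13 in genome build mm9, with no filter on enrichment, width or read number. They were set against 38333 regions on 15 other autosomes. Chromosomes 7, 8 and 15 were left out of that pool, as was the X chromosome.

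The list came from chromatin immunoprecipitation followed by sequencing (ChIP-seq), which reads out the DNA that is bound to a protein pulled down by an antibody. C2C12 is an established line of mouse muscle precursor cells, which stop dividing and fuse into myotubes in low serum. There was 1 library from DNA precipitated with an antibody against macroH2A1.1 and 1 library of input chromatin taken without antibody, both from cells of the genotype Wild Type. The source of both is labelled myoblast, while their short descriptions carry the letters DM, the abbreviation of the growth protocol for differentiation media, and the study describes the profile as one of myotubes. The neutral term C2C12 cells is used here for that reason. With a single library of each kind no difference has a replicate check, no test between chromosomes was run, and all intervals cover counting error only.

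MacroH2A histones replace the canonical histone H2A in a part of the nucleosomes and carry a large globular macrodomain outside the nucleosome core. The gene Macroh2a1, named H2afy in older annotations, gives rise to the splice isoforms macroH2A1.1 and macroH2A1.2, which differ by mutually exclusive exons in the macrodomain. The macrodomain of macroH2A1.1 binds ADP-ribose, whereas that of macroH2A1.2 does not. MacroH2A typically forms broad domains of modest enrichment rather than sharp peaks, so that the number, width and spacing of regions describe its distribution as well as their height. Macroh2a1 itself lies on chromosome 13, as does Tmem171, which encodes a transmembrane protein. Of the other genes of adhesion and matrix that the study followed, Fn1 and Fmod lie on chromosome 1, Thbs1 on chromosome 2, Itga11 on chromosome 9 and Col1a1 on chromosome 11.

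Chromosome 13 had the highest covered share of the 16 autosomes compared. Its regions summed to 14.7 Mb, which is 12.2% of the length up to the highest region end at 120 Mb. The 15 other autosomes pooled had a covered share of 8.55%, so that the ratio of chromosome 13 to the pool was 1.43. Single autosomes ranged from 6.55% on chromosome 14 to 11.0% on chromosome 11, and chromosome 10 had 10.1%. Among the chromosomes left out, chromosome 15 was above chromosome 13 with 19.7%, while chromosome 8 had 11.4% and chromosome 7 had 2.62%.

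Among the regions as listed, the higher covered share went with more regions and not with wider ones. Chromosome 13 held 27.7 regions per Mb against 19.6 in the pool, a ratio of 1.42. This was the highest value of the 16 autosomes compared, the next being 24.5 on chromosome 11 and 24.3 on chromosome 10, whereas chromosome 15, left out of the comparison, had 36.1. The mean width, in contrast, was 4407 bp on chromosome 13 and 4362 bp in the pool. The ratio was 1.01, and chromosome 13 stood at position 6 of 16. This split depends on how neighbours are joined. With regions within 10 kb joined, the regions per Mb ratio was 1.18. The median width was then 8100 bp against 7000 bp in the pool, a ratio of 1.16. In protein-coding genes per Mb, chromosome 13 did not stand first. RefSeq places 829 protein-coding genes on chromosome 13 in the later build GRCm38, or 6.89 per Mb of listed length, which is position 11 of 16. Chromosome 11, next to chromosome 13 in regions per Mb, had the most genes with 13.2 per Mb. Whether gene and region numbers went together over the 16 autosomes was not tested.

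Read densities within the regions of chromosome 13 lay among those of the other autosomes. The input library gave 6.55 reads per kb of region on chromosome 13 and 6.69 in the pool, a ratio of 0.980 with a 95% interval of 0.974 to 0.987 (exact Clopper-Pearson on the read shares). Single autosomes ranged from 6.31 input reads per kb on chromosome 9 to 7.09 on chromosome 17, and chromosome 13 took position 11 from the highest. The ChIP library gave 20.9 reads per kb on chromosome 13 and 21.1 in the pool, a ratio of 0.986 with an interval of 0.983 to 0.990, at position 12 of 16. Both densities of chromosome 13 lay inside the range of the single chromosomes compared. They fell slightly below the pool as listed. Thinning the reads of each chromosome to the lowest input density made the input densities equal by construction, with a ratio of 1.004. The ChIP ratio then became 1.005, which restates the ratio of the pooled folds of ChIP over input, 1.006. Neither thinned ratio is therefore a check of the listed ones. Of the chromosomes left out, 15 had 8.37 and 8 had 9.40 input reads per kb, above all 16, and 7 had 5.06, below them. The input density inside called regions is the only measure of input at hand, since reads outside regions are not listed.

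**Figure D1:**
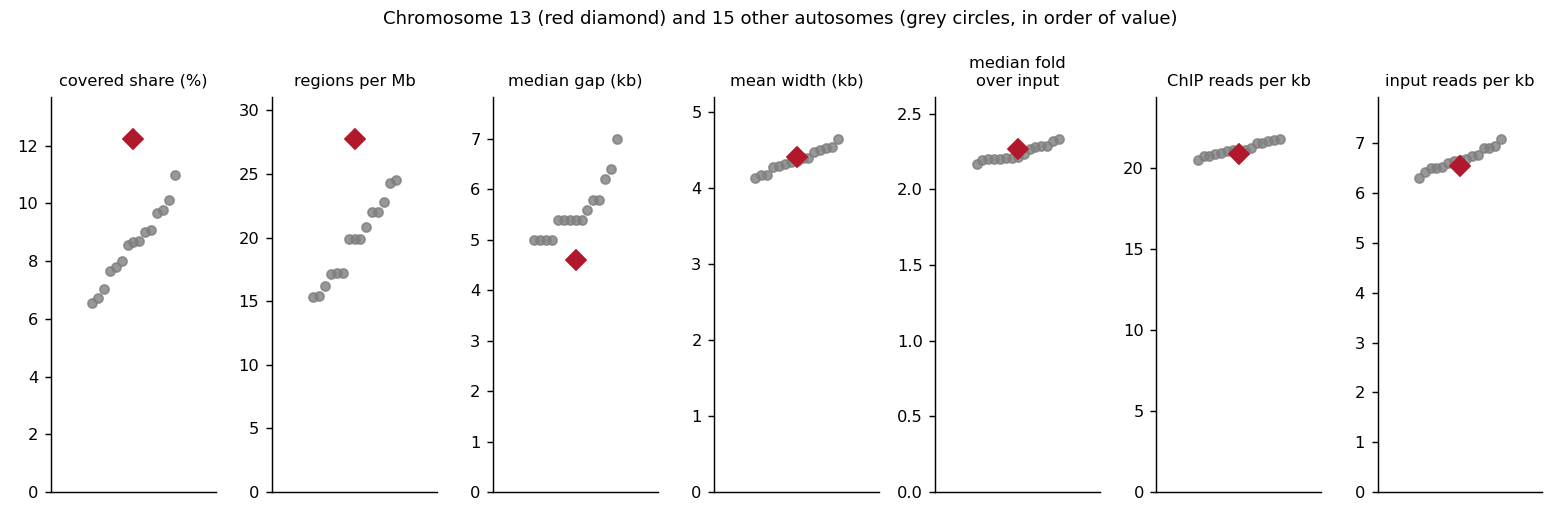
Covered share, regions per Mb, median gap, mean width, median fold over input, and ChIP and input reads per kb of region for chromosome 13 (red diamond) and 15 other autosomes (grey circles, ordered by value), each axis starting at 0. Chromosome 13 lies above these 15 in covered share (12.2%) and regions per Mb (27.7), below them in median gap (4600 bp), and within their range in the other 4 panels.

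Enrichment over input was similar as well. The listed fold is the ChIP count over the input count, divided by a library factor of 1.45 that was the same for all regions. The median fold on chromosome 13 was 2.27 (95% interval 2.23 to 2.29, from order statistics) and that of the pool was 2.24 (2.23 to 2.25). On the log2 scale the medians were 1.18 and 1.16, a difference of 0.02. The interval of the chromosome 13 median, less the pool median taken as fixed, was -0.01 to 0.04 and includes 0. Pooling all reads of chromosome 13, 306699 from the ChIP and 96388 from the input library, gave a 2.19-fold enrichment. The lower and upper quartiles of single regions were 1.80-fold and 2.90-fold.

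The share of strongly enriched regions was close to that of the whole list, and weakly enriched regions were somewhat fewer. On chromosome 13, 2131 regions (63.9%) were enriched 2-fold or more, against 61.3% of the whole list and 62.7% of the pool. At 4-fold or more there were 285 regions (8.54%), against 8.34% of the whole list. Regions under 1.5-fold numbered 292 (8.75%, Clopper-Pearson interval 7.81% to 9.76%), against 11.3% of the whole list and 10.4% of the pool, both above the interval. When the split of reads between both libraries was tested by an exact binomial test, which counts the error of the input too, 3060 of the 3337 regions (91.7%) had a Benjamini-Hochberg adjusted p up to 0.05, against 90.1% of the whole list. The caller had chosen the listed regions on these same counts, so a high share was set in advance and is no separate support. The shares at 2-fold, at 4-fold and under 1.5-fold took positions 6, 7 and 13 of 16 from the highest. Chromosome 9 had the largest share at 2-fold or more, with 67.2%, and chromosome 17 the smallest, with 58.7%.

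Regions of chromosome 13 lay closer together than those of the 15 autosomes in the pool. The median gap between neighbouring regions was 4600 bp (interval 4400 to 5000 bp) on chromosome 13, the shortest of the 16 autosomes, whose other values ran from 5000 to 7000 bp. On chromosome 15, left out of the comparison, it was shorter, with 3600 bp. Of its 3336 gaps, 52.3% were no longer than 5 kb and 70.0% no longer than 10 kb, against 47.9% and 64.0% in the pool. Gaps over 100 kb made up 4.98% of gaps on chromosome 13 and 7.82% in the pool. They took 58.6% and 67.3% of the respective lengths. Gaps over 500 kb were not rarer per length, with 34.1 per 100 Mb on chromosome 13 and 27.7 in the pool, whereas gaps over 1 Mb numbered 14 (11.6 per 100 Mb, against 13.4). The share of length in gaps over 1 Mb was 20.6% on chromosome 13 and 31.4% in the pool.

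Widths differed little. The median width was 3600 bp on chromosome 13 and 3400 bp in the pool, a difference of one step of the 200 bp grid on which all regions lie, and the quartiles, 2600 and 5200 bp, were the same in both sets. Of the other 15 autosomes, 7 shared the median of chromosome 13. Regions over 20 kb were few, with 15 on chromosome 13 (0.450%, interval 0.252% to 0.740%) against 0.616% in the pool, and they held 2.57% of the covered length against 4.06%. The widest region of the chromosome spanned 39.4 kb, while the pool reached 111.8 kb on chromosome 1.

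**Figure D2:**
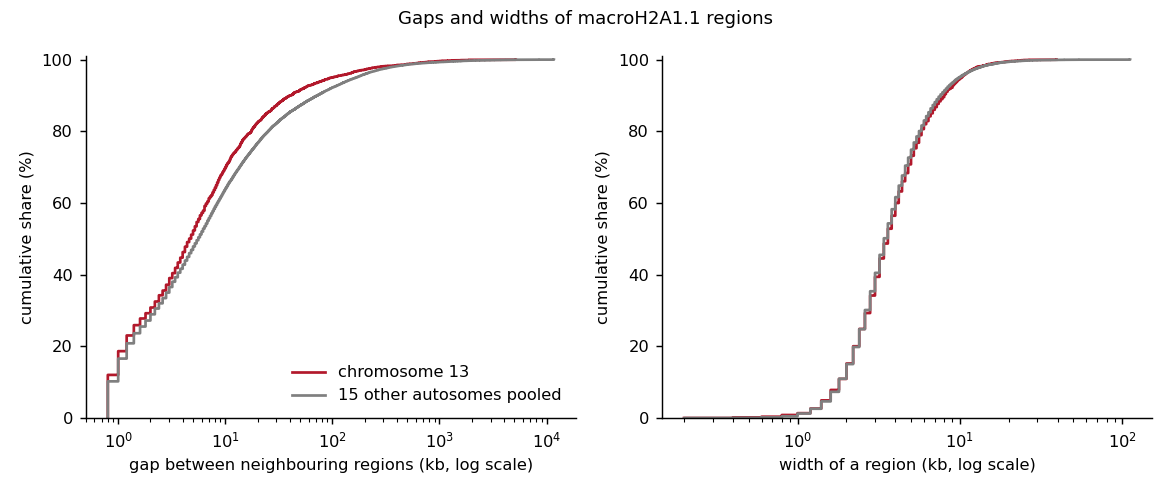
Cumulative share of gaps between neighbouring regions (left) and of region widths (right), in kb on log axes, for chromosome 13 (red) and the 15 other autosomes pooled (grey). The gap curve of chromosome 13 lies to the left of the pool over most of its course, with 70.0% against 64.0% of gaps up to 10 kb, while the width curves almost coincide.

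Narrow regions had higher folds than wide ones on chromosome 13 and in the pool alike. The regions of chromosome 13 were split by width into 4 classes of equal size. In the narrowest class, with a median width of 2000 bp, the median fold was 2.71 (interval 2.62 to 2.82). It was 2.24 in the second class, 2.13 in the third and 2.13 in the widest, whose median width was 7200 bp. The pool gave 2.65, 2.22, 2.12 and 2.12 in its own classes. ChIP density moved with it, from a median of 23.3 reads per kb in the narrowest class of chromosome 13 to 19.4, 19.2 and 19.9 in the others, and the part of the calling in this relation was not tested. The rank correlation of width and fold was -0.24 over the 3337 regions, as a description, since both values rest on the same reads.

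Chains of many regions were more frequent per length than in the pool. When neighbours up to 5 kb apart were joined, chromosome 13 gave 1591 chains, and 919 regions (27.5%) stayed alone, against 31.8% in the pool. Chains of 10 or more regions numbered 26, or 21.6 per 100 Mb, against 10.8 per 100 Mb in the pool, and held 10.3% of the chromosome 13 regions against 7.30%. The longest chain ran over chr13:43751201-44010600 with 34 regions, of which 199 kb of 259.4 kb were covered. It held 4542 ChIP and 1421 input reads, a pooled fold of 2.20 (interval 2.08 to 2.34), close to the 2.19 of the whole chromosome. The pool reached 44 regions in a chain. Chains were compared with the pool only, not with single autosomes, and the part of the higher number of regions per Mb in them was not tested.

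Along the chromosome, coverage was uneven, while read density inside the regions varied less. Density is known only inside regions that the caller accepted, and the part of the calling in its evenness was not tested. Of the 121 bins of 1 Mb (the last one partial), 15 (12.4%, interval 7.11% to 19.6%) held no base of a region, against 20.1% of the 1965 bins in the pool. At the other end, 31 bins (25.6%) had over 200 kb covered, against 11.6% in the pool, and 21 bins (17.4%) held the starts of 50 or more regions, against 9.57%. The median bin had 84.2 kb covered on chromosome 13 and 52.8 kb in the pool. Among the occupied bins alone, 106 on chromosome 13, the medians were 104 kb and 79.6 kb. Chromosome 13 thus had a smaller share of empty bins than the pool and also more covered length in the bins that were occupied. Bins, too, were compared with the pool only, not with single autosomes.

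The most covered bin was that from 102 to 103 Mb, with 575 kb in 104 regions. The bins from 44 Mb and from 52 Mb followed with 524.8 and 516 kb, then those from 98 Mb with 429.4 kb and from 31 Mb with 415.8 kb. By number of regions, the bins from 102 Mb (104 regions), 52 Mb (92), 98 Mb and 111 Mb (89 each) and 60 Mb (87) came first. Pooled folds in these 7 bins ran from 2.12 in the bin from 111 Mb to 2.35 in that from 31 Mb, and input densities from 6.23 to 6.82 reads per kb. The folds and input densities of the richest bins thus lay inside the range of the other bins. The 10 most covered bins held 29.1% of the covered length, and the 30 most covered held 61.9%.

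Input density inside regions varied less than coverage. Over the 80 bins with 10 or more regions it ran from 5.54 reads per kb in the bin from 11 Mb to 9.18 in that from 55 Mb, with a median of 6.52, and 60 bins lay between 6 and 7. The ChIP density ran from 17.4 in the bin from 39 Mb to 25.1 in that from 56 Mb. The 26 occupied bins with fewer than 10 regions spread wider, from 3.67 to 9.58 input reads and up to 44.2 ChIP reads per kb. Pooled folds of the 80 bins lay between 1.78 in the bin from 97 Mb and 2.67 in that from 35 Mb. Across the 80 bins, covered length had a rank correlation of 0.09 with input reads per kb, 0.48 with ChIP reads per kb and 0.23 with the fold. In the pool, over 1127 bins, these were 0.10, 0.41 and 0.20. They are descriptions, since covered length and densities come from the same regions and libraries. Covered length of neighbouring bins had a rank correlation of 0.45 over 120 pairs, against 0.54 in the pool.

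**Figure D3:**
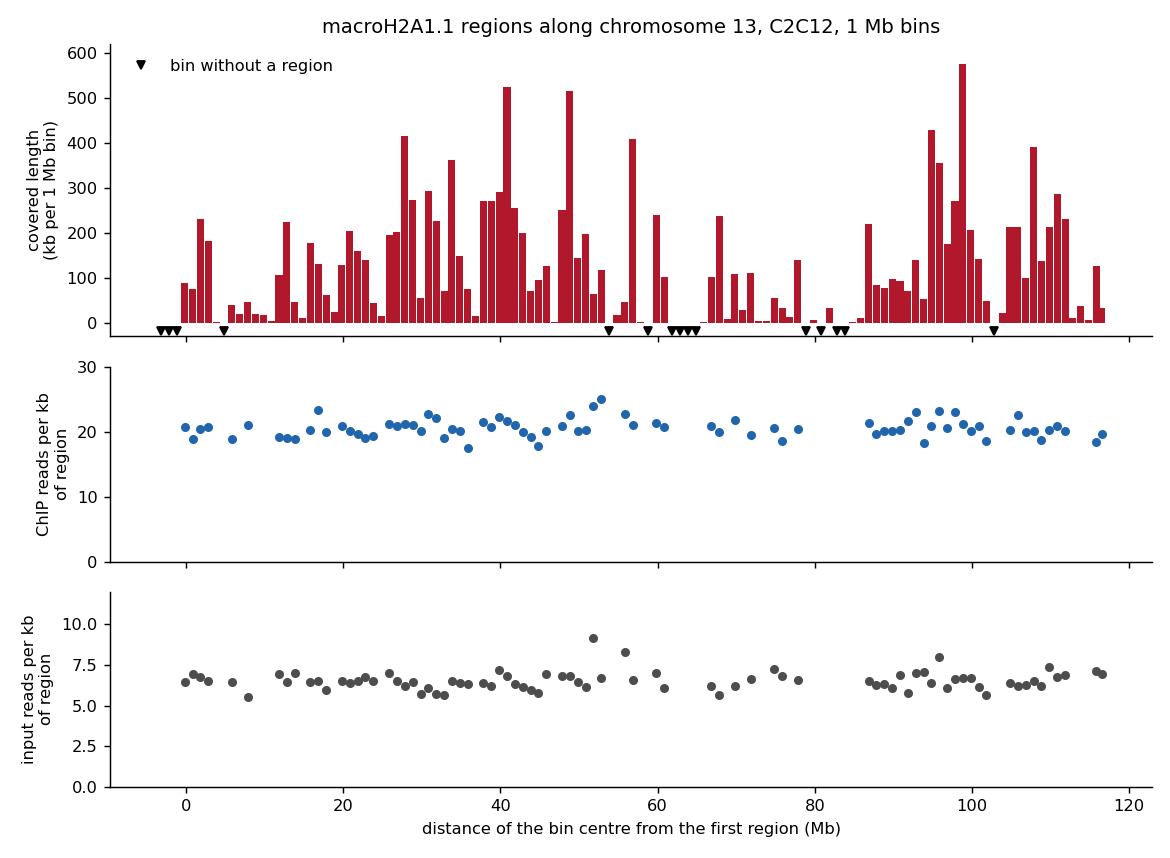
Covered length per 1 Mb bin (top), and ChIP (middle) and input (bottom) reads per kb of region in the 80 bins with 10 or more regions, along chromosome 13 as distance from the first region; triangles mark the 15 bins without a region. Covered length varies between 0 and 575 kb per bin, and input density in the 80 bins runs from 5.54 to 9.18 reads per kb.

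In steps of 10 Mb, the segments from 30 to 40 Mb and from 40 to 50 Mb were the most covered, with 21.2% each and 472 and 430 regions. The stretch from 80 to 90 Mb was the least covered, with 2.02% and 57 regions. Median folds of the full segments differed less, from 2.07 (interval 1.95 to 2.20) in the segment from 10 Mb to 2.36 (2.27 to 2.46) in that from 30 Mb. The segment from 110 Mb had a covered share of 15.4% and a median fold of 2.08 (2.00 to 2.17), whose interval lies below that of the segment from 100 Mb, 2.35 (2.24 to 2.47). A high covered share therefore came with both higher and lower folds.

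The longest stretch without a region was chr13:64527001-69691000, of 5.16 Mb. Only 12 gaps of 38318 in the pool were longer, yet the longest gap of chromosome 13 took place 9 among those of the 16 autosomes, which reached 11.7 Mb on chromosome 14. The next were chr13:85699001-88932200 (3.23 Mb), chr13:81905801-83794200 (1.89 Mb), chr13:7151201-9035600 (1.88 Mb) and chr13:83858601-85486400 (1.63 Mb). Of these 5 gaps, 3 lay in the least covered segment, from 80 to 90 Mb. The 15 empty bins fell into 9 separate stretches. They comprised 4 bins from 65 to 69 Mb, 2 from 86 to 88 Mb, the first 3 of the chromosome and 6 single bins. The first region, chr13:3663201-3678000, began at 3.66 Mb, and first regions of the 16 autosomes began between 3.01 and 8.80 Mb. Whether the gaps lie over sequence to which reads could be mapped was not tested, because the mm9 sequence was not used here.

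The first region was 14.8 kb wide and held 369 ChIP and 104 input reads, a fold of 2.45 (exact interval 1.96 to 3.07). The last one, chr13:120284001-120284400, was 400 bp wide with 27 ChIP and 11 input reads, a fold of 1.69 whose interval of 0.813 to 3.78 includes 1. Its input density of 27.5 reads per kb was far above the chromosome median of 6.25.

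The 5 widest regions differed in enrichment. The region chr13:63736801-63776200 (39.4 kb) held 936 ChIP and 307 input reads, a fold of 2.10 (interval 1.85 to 2.40). The second, chr13:99118401-99155200 (36.8 kb), had the most reads of all on the chromosome, 1038 from the ChIP and 554 from the input library, but a fold of 1.29 (1.16 to 1.44). Its input density of 15.1 reads per kb was more than that of the other 4, which lay between 5.34 and 7.79. The regions chr13:52843201-52870000 (26.8 kb, 3.48-fold, 2.90 to 4.19) and chr13:114193401-114218200 (24.8 kb, 3.44-fold, 2.85 to 4.17) had the highest folds of the 5. Between them stood chr13:29236001-29261800 with 25.8 kb and 2.61-fold (2.21 to 3.10). The intervals of the second region and of the latter 3 do not overlap.

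Where over 3 input reads were counted, the fold peaked at 9.66 in chr13:53410401-53414000, with 70 ChIP and 5 input reads (interval 3.95 to 30.7). Next came chr13:100500601-100503600 with 69 and 5 reads (9.52-fold, 3.89 to 30.2) and chr13:111277001-111279200 with 52 and 4 reads (8.97-fold, 3.30 to 34.1). The regions chr13:49218001-49220200 and chr13:90835201-90838200 tied with 46 and 4 reads each (7.93-fold, 2.90 to 30.3). All 5 intervals overlap over most of their length, so these regions cannot be ordered at this depth. Their ChIP densities ran from 15.3 to 23.6 reads per kb, from below the lower quartile of the chromosome, 18.3, to slightly above the upper one, 23.1. The high folds thus went with low input counts.

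A single region had no input read. It was chr13:100402601-100403000, with 31 ChIP reads in 400 bp, which would be 7.13-fold over input if 3 input reads were taken as the floor. Its exact interval, with 0 input reads, began at 5.46-fold. In all, 31 of the 3337 regions of chromosome 13 had 3 or fewer input reads, against 404 of the 50887 in the whole list. Those on chromosome 13 were between 400 and 2200 bp wide with 25 to 56 ChIP reads.

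A group of 5 narrow regions stood apart in read density in both libraries. They lay within 54.4 kb and were 200 to 1400 bp wide. The region chr13:56229601-56230000 held 139 ChIP and 13 input reads, or 347.5 and 32.5 reads per kb, with a fold of 7.37 (interval 4.17 to 14.2). The region chr13:56205601-56206400 held 253 and 33 reads, or 316 and 41.2 reads per kb, with a fold of 5.29 (3.67 to 7.85). These were the highest ChIP densities of the whole list, the next being 170 reads per kb on chromosome 9.

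The remaining 3 had fewer reads. The region chr13:56175601-56175800 held 32 ChIP and 6 input reads (3.68-fold, 1.52 to 10.8), chr13:56197401-56197800 held 51 and 10 (3.52-fold, 1.77 to 7.77) and chr13:56184401-56185800 held 81 and 24 (2.33-fold, 1.46 to 3.84). Input densities of the 5 ran from 17.1 to 41.2 reads per kb, against a chromosome median of 6.25. They summed to 556 ChIP and 86 input reads on 3.20 kb, a pooled fold of 4.46 (3.55 to 5.66). Of the covered length of chromosome 13 they took 0.0218%, of its ChIP reads 0.181% and of its input reads 0.0892%.

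Such densities were rare elsewhere. At 100 or more ChIP reads per kb there were 22 regions in the whole list (0.0432%), and 5 of them lay on chromosome 13, while no other chromosome had more than 3. Of those 5, 4 belonged to the narrow group. The fifth was chr13:58869601-58870000, with 49 ChIP reads but only 1 input read (33.8-fold, interval 5.79 to 1362). At 25 or more input reads per kb there were 10 regions in the list and 5 on chromosome 13, and both limits together were passed by 6 regions in the list, 4 of them in the group. The nearest other regions on either side, 75.8 kb before and 20.6 kb after the group, had 17.5 and 18.3 ChIP reads per kb and 6.07 and 7.17 input reads per kb. Leaving the 5 regions out, the ChIP density of the bin from 56 Mb, the highest of the 80 bins with 10 or more regions, went from 25.1 to 20.9 reads per kb.

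**Figure D4:**
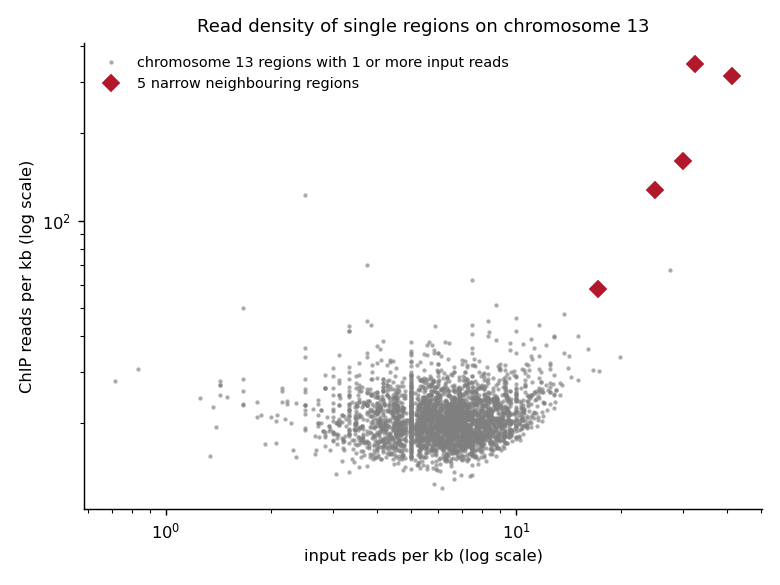
ChIP reads per kb against input reads per kb for the chromosome 13 regions with 1 or more input reads, both axes logarithmic; red diamonds mark the 5 narrow neighbouring regions. The bulk lies near 20 ChIP and 6 input reads per kb, and 4 of the 5 marked regions exceed 100 ChIP and reach at least 25 input reads per kb.

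The spacing of the 5 regions matched that of the coding exons of Macroh2a1, the gene of the precipitated protein. The comparison was made after the values had been seen and used distances within each build only, since the regions are in mm9 and the annotation (GENCODE vM21) is in GRCm38. From the start of the leftmost region, the regions began at 0, 8.80, 21.8, 30.0 and 54.0 kb. Macroh2a1 is transcribed from the minus strand, so that its last coding exon is the leftmost. Measured from the left edge of the coding part of exon 9, exon 8 began at 8.89 kb, exon 7 at 9.97 kb, exon 5 at 21.9 kb, exon 4 at 30.1 kb, exon 3 at 30.7 kb and exon 2 at 54.0 kb.

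With a single offset between both rulers, each of the 5 regions met a coding exon, and the offset could vary by 0.36 kb. At any such offset 6 of the 8 coding exons of macroH2A1.1 fell into a region, and at part of them exon 3 did as well. The wider regions matched pairs of exons, the one of 1400 bp exons 7 and 8 and the one of 800 bp exon 4 with exon 3. The isoform-specific exons did not meet any. Exon 6 of macroH2A1.1 lay at 14.02 kb and the alternative exon 6 of macroH2A1.2 at 15.5 kb, and no region was listed from 10.2 to 21.8 kb. The non-coding first exon lay at 61.1 kb, beyond the last region of the group, which ended at 54.4 kb.

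All 851 genes with coding exons that the annotation places on chromosome 13 were searched in the same way, at any offset along the chromosome. The 5 regions could be met by coding exons in 7 genes, so that meeting all 5 is not particular to Macroh2a1 when any offset is allowed. Only the first such offset of each gene was recorded. The 6 others had 26 to 108 coding exons, of which 5 each fell into the regions, at recorded offsets of 7.34 Mb or more. Their shares, 4.63% to 19.2%, therefore follow from their numbers of exons and are no separate support for Macroh2a1. Macroh2a1 had 9 distinct coding exons in both isoforms together, of which 7 (77.8%) fell into the regions at the recorded offset. Exon 3 was among them, which met a region at part of the permitted offsets only. Of the 7 genes, Macroh2a1 alone had a recorded offset under 1 Mb. Without an mm9 annotation the regions were not assigned to the gene by position, and the origin of the reads was not tested.

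**Figure D5:**
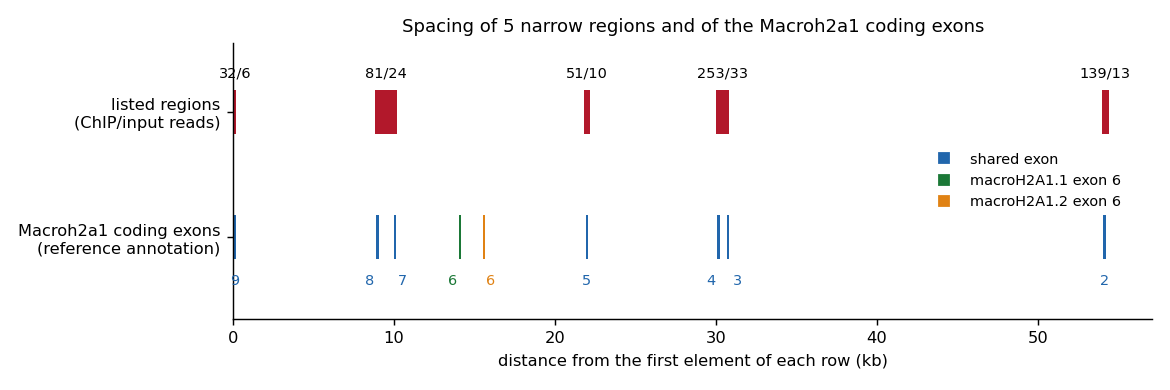
The 5 narrow regions of chromosome 13 (top, with ChIP and input reads) and the coding exons of Macroh2a1 (bottom, numbered), each row as distance in kb from its own first element. The regions at 0, 8.80, 21.8, 30.0 and 54.0 kb stand over exons 9, 8 with 7, 5, 4 with 3, and 2, while neither exon 6 has a region.

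The sequences of 3 coding exons are shown: exon 2, which has a counterpart in spacing, and both alternative exons 6, which have none. They were taken from the GENCODE vM21 transcripts, are written 5′ to 3′ on the minus strand, and carry GRCm38 coordinates. Exon 2 (chr13:56128277-56128448, coding part, 172 bases) is the counterpart in spacing of the densest region, and capitals mark the start codon. The macroH2A1.1 exon 6 (chr13:56088252-56088342, 91 bases) and the macroH2A1.2 exon 6 (chr13:56089758-56089857, 100 bases) are the mutually exclusive exons, for which no region was listed.
exon 2: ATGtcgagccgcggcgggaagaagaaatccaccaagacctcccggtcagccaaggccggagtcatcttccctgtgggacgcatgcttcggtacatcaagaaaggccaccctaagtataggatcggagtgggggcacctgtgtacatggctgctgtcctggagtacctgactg
macroH2A1.1 exon 6: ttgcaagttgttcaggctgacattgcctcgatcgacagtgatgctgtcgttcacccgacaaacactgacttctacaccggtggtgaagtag
macroH2A1.2 exon 6: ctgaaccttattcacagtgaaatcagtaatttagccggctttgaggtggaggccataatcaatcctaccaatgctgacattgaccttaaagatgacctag

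The 2 alternative exons differ in length by 9 bases. Their G and C contents were 50.5% in macroH2A1.1 and 42.0% in macroH2A1.2, against 58.1% in exon 2. The other matched exons were not measured, so these values do not describe matched exons as a set.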

How the data were processed

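ChIP-seq of macroH2A1.1 and of input in C2C12 cells gave 1 library each. According to the study's methods and the submitters' processing notes, reads were aligned to mm9 with Bowtie2 2.0.6, and broad regions were called with SICER. The deposited list is named after the re-implementation epic. Its 200 bp steps and gaps from 800 bp up do not match the larger window and gap stated in the methods, so that widths and gaps hold for the list as deposited. The authors deposited raw ChIP and input read counts per region, the log2 fold change after scaling by library size, and the p-value and FDR of the caller (up to 0.0499). Library totals are not listed, so depth is known within regions only. Positions are given 1-based in mm9, and covered shares are taken over the highest region end.

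The members, gene list and measures were chosen with earlier results of these data known. Regions were named by rule: the 5 highest folds with over 3 input reads and those with 0, the 5 widest, the 5 with most ChIP reads per kb, the 5 longest gaps, the 5 fullest bins, the longest chain, and the first and last region. The narrow region chr13:56184401-56185800, the regions next to that group and the counts by input density fall outside the rule and were chosen after their values were seen. Reads and bases of regions crossing a bin edge were split by length, and regions were counted by their start. Intervals are 95% Clopper-Pearson or, for medians, from order statistics. Those of the covered share ratio and of the log2 difference take the value of the pool as fixed. The functions were tested on simulated data. Python 3.11.15, pandas 2.3.3, scipy 1.17.1 and numpy 2.4.6 were used. Chromosomes of genes came from RefSeq, and exons from GENCODE vM21, both in GRCm38, and no genome coordinate was converted between builds. Alternatives were an FDR of 0.01, a 2-fold filter, the exact binomial test, thinned reads, other comparison chromosomes, lengths, joins and bins.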

Additional observations from a re-analysis of the deposited data

How the results depend on the processing

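Values were recomputed with other sets of regions, comparison chromosomes, lengths, joins and bins. The covered share ratio of chromosome 13 over the pool stayed above 1 in all 10 alternatives, between 1.39 and 1.47. It left the counting interval of its reported value, 1.42 to 1.44, for regions enriched 2-fold or more (1.44), by the exact binomial test (1.45), against all 18 other autosomes (1.39), against the median of single chromosomes (1.41), with regions within 10 kb joined (1.47) and without regions over 20 kb (1.45). The regions per Mb ratio stayed between 1.18, with joined regions, and 1.44. The median width ratio was 1.16 with joined regions, against 1.06 for the regions as listed. The difference of median log2 enrichment lay between 0.00 and 0.04 and was largest against all 18 autosomes (0.038). The input reads per kb ratio became 0.990 for regions enriched 2-fold or more and 0.934 against all 18 autosomes, and the ChIP ratio 0.968 against the latter. Thinning every chromosome to the lowest input density gave an input ratio of 1.004, a density set equal by construction. The ChIP ratio of 1.005 then followed from the pooled folds, so neither is a check of the reported ratios. Empty bins on chromosome 13 were 23.2% at 500 kb (29.8% in the pool) and 4.92% at 2 Mb (11.2%), and chromosome 13 was below the pool in all 10 settings, the reported one included. The median gap was 24.4 kb with joined regions and 8.80 kb for regions enriched 2-fold or more.

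Leaving out the 5 narrow regions, an alternative chosen after seeing the data, gave a covered share ratio of 1.43, an input ratio of 0.980 and a ChIP ratio of 0.985. No paired analysis was possible because there is only 1 ChIP and 1 input library. Without replicates the spread between cultures is unknown, so that no ratio here can be set against biological error. Intervals take reads or 200 bp windows as independent, which they are not. Folds with 5 or fewer input reads have upper limits above 30 for the 5 highest, and cannot be ordered.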
